A study of Mus musculus with 4 samples.

Results

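The Ifitm genes encode small interferon-induced transmembrane proteins, and all 5 members considered here, Ifitm1, Ifitm2, Ifitm3, Ifitm5 and Ifitm6, lie side by side on mouse chromosome 7. They are 5 of the 16390 genes named on the array. Members were taken as the probes whose platform symbol, or a synonym of it, is one of these names; each had 1 probe, so no choice between probes arose. The family was chosen by its values on these arrays, the members' levels and their differences between samples, so both are given as a description, with no test. Sequences of Ifitm1, Ifitm2 and Ifitm3 are alike enough that their RNAs may bind each other's probes, and the probe sequences were not used here.

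Ifitm proteins sit in the plasma membrane and in endosomes, where they hinder the fusion of enveloped viruses with the cell. Interferons induce several of them through STAT and IRF factors bound to promoter elements, but some members are also made by embryonic, stem-like and tumor cells without added interferon. In the intestine, members of the family have been described as raised in tumors with active Wnt signalling, the pathway released when Apc is lost.

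The arrays measured RNA of intestinal cells sorted by Dclk1, a doublecortin-like kinase that marks tuft cells, the rare chemosensory cells of the gut epithelium. There were 4 samples and 1 array each. Dclk1+ tumor came from pooled intestinal tumors of 7 Dclk1CreERT2/+; ApcMin/+ mice aged over 16 weeks, and Dclk1- tumor from tumors of 1 such mouse aged 17 weeks. Dclk1+ normal came from the small intestines of 2 pooled Dclk1CreERT2/+ mice and Dclk1- normal from 1, all aged 26 weeks. All mice were male, and all, those with normal intestine included, carried 1 copy of the CreERT2 allele of Dclk1. ApcMin is a germline allele that loses Apc function, so tumors start where the other copy is lost. GFP-expressing cells were sorted to obtain Dclk1+ tumor; the sources used here state neither the gates for the other 3 samples nor the reporter behind the GFP. A single array per group leaves no replicate and allows no test, every difference compares 2 arrays, and array, mouse, age and histology cannot be told apart. Fewer cells of a type and less RNA per cell cannot be told apart either.

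On the 4 arrays, 63.3% to 70.9% of 23473 probes were brighter than the array's blank spots (mean plus 2 SD), the rule used here for above background. Of 13 tuft cell markers on the array, 10 of 12 above background were at least 2-fold higher in Dclk1+ than in Dclk1- tumor cells and 12 of 13 in Dclk1+ than in Dclk1- normal cells. Between the 2 Dclk1+ samples, 10 of 13 were at least 2-fold lower in tumor and 0 higher, with a median of -1.77 log2. Over all genes, 4.2% were lower and 4.27% higher in that comparison. The Dclk1 probe itself read 6.64 log2 in Dclk1+ and 5.94 in Dclk1- tumor cells, and 9.0 in Dclk1+ and 7.59 in Dclk1- normal cells. All 5 pan-epithelial markers on the array were above background in each sample, but most read lower in tumor. Their median for tumor against normal was -0.92 log2 in Dclk1+ cells and -0.97 in Dclk1- cells. A drop of 2-fold or more was seen for 2 of the 5 in each of these comparisons, and a rise of that size for 0. Krt19 alone was slightly higher in tumor, by 0.09 and 0.06 log2. Whether this bears on the Ifitm values was not tested. The number of arrays limits the precision of every value. As a guide to technical spread, different probes of the same gene differed with an SD of 0.39 log2 for Dclk1+ against Dclk1- in tumor and 0.79 in normal, and of 0.51 (Dclk1+) and 0.71 (Dclk1-) between tumor and normal cells. These probes were read on the same 2 arrays, so the SD does not measure spread between arrays, sorts or mice.

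The promoters of the 3 members that differed between samples are shown, because interferon response elements at the start site are the best known route to their induction. Each is 250 bases before to 50 after the RefSeq start on GRCm38.p6, 5′ to 3′ along the gene: Ifitm1 at chr7:140967826-140968125 (plus strand), Ifitm2 at chr7:140955912-140956211 (minus strand) and Ifitm3 at chr7:141010695-141010994 (minus strand). Capitals mark matches to the core of the interferon-stimulated response element, GAAA and GAAA with any 2 bases between them, and of the gamma-activated site, TTCNNNGAA.
Ifitm1: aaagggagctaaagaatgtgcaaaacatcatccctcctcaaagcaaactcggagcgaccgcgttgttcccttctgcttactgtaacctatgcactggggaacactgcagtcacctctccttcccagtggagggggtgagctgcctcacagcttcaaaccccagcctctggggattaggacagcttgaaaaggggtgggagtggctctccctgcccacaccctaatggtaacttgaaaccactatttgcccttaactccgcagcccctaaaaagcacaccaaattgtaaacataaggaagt
Ifitm2: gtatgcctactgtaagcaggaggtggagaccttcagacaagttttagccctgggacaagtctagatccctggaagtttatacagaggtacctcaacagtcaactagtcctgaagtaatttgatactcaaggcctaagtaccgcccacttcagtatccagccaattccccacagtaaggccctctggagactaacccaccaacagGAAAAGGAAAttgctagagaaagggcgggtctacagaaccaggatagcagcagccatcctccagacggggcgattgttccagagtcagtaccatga
Ifitm3: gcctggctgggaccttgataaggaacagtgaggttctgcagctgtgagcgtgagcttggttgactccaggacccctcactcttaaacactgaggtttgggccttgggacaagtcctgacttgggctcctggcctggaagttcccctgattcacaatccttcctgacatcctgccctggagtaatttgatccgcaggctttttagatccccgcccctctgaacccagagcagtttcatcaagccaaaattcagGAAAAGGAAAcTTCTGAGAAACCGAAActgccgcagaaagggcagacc

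Both strands of all 5 promoters were searched. Ifitm3 held 2 response element cores, at bases 2 to 11 and 19 to 28 after the start, with a gamma-activated core at 13 to 21 that overlaps the second. Ifitm2 held 1, at bases -46 to -37. The Ifitm1, Ifitm5 and Ifitm6 windows held no match to the response element core, which 3.44% of 32851 RefSeq mouse promoters of the same length contain. Ifitm2 and Ifitm3 shared a stretch of 13 bases, caggaaaaggaaa, around their matching GAAAAGGAAA cores, while the other pairs shared no stretch longer than 10 bases. For the Wnt effectors TCF and LEF, only 2 forms of the core were searched for. CTTTGAA (5.14% of promoters) was found in Ifitm6 only, and CTTTGTT (5.85%) in none of the 5. Other forms of this core were not searched for, so the windows may hold them. TTCNNNGAA (8.30% of promoters) was also found in Ifitm6, at bases -10 to -2. A match is a description of these letters, and no match says only that they are not in this window.

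Ifitm1, the member that acts mainly at the cell surface in human cells, was the one that varied most. Its normalised signal (log2) was 12.49 in Dclk1+ and 12.90 in Dclk1- tumor cells, and 9.68 in Dclk1+ and 5.88 in Dclk1- normal cells. Before any correction its spot read 5097, 8508, 795 and 28.6 intensity units on the same arrays, with above-background limits of 24.4, 25.7, 22.2 and 23.7. Ifitm1 was thus bright in both tumor samples, lower in Dclk1+ normal cells and only just above the blanks in Dclk1- normal cells. On the authors' normalised intensities, a linear scale, it was 7719, 8388, 1303 and 8.75.

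Ifitm2, a close relative of Ifitm3, had a normalised signal (log2) of 9.78 in Dclk1+ and 10.19 in Dclk1- tumor cells, and 8.04 in Dclk1+ and 7.86 in Dclk1- normal cells. Both tumor samples were above both normal samples, and the difference between the normal samples was under the spread between probes. Ifitm3, the endosomal member that restricts influenza virus entry, had 11.08, 11.41, 8.15 and 8.61 in the same order of samples. For Ifitm3 too the tumor samples were both higher, but Dclk1+ normal was the lowest of the 4, where for Ifitm1 and Ifitm2 it was Dclk1- normal.

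Ifitm5, also called Bril, is made by bone-forming osteoblasts, and mutations of human IFITM5 cause a form of brittle bone disease. Its signal (log2) was 6.15 in Dclk1+ and 6.44 in Dclk1- tumor cells, and 5.87 in Dclk1+ and 5.95 in Dclk1- normal cells. Ifitm6 had 5.85, 6.14, 5.88 and 5.77. Both spots were dim: Ifitm5 read 38.4, 62.4, 25.9 and 31.9 intensity units, and Ifitm6 read 26.7, 43.1, 26.2 and 23.4, the last not above background. The plot of member signals shows the 3 bright members apart from these 2.

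**Figure D1:**
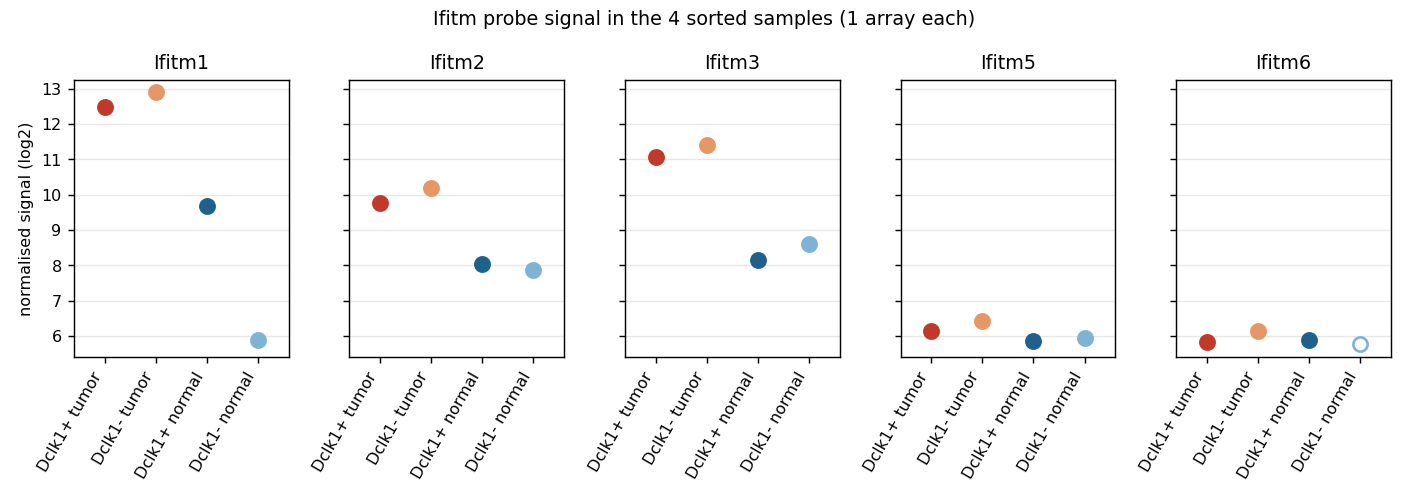
Normalised signal (log2, vertical axis) of the 5 Ifitm probes, 1 panel each, in the 4 sorted samples; a point is 1 array and an open point is not above background. Ifitm1 spans 12.90 in Dclk1- tumor to 5.88 in Dclk1- normal, Ifitm2 and Ifitm3 are higher in both tumor samples, and Ifitm5 and Ifitm6 stay between 5.77 and 6.44.

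The first comparison was tumor against normal. In Dclk1+ cells, 3 of the 5 members were at least 2-fold higher in tumor and 0 lower; over all 12869 genes above background on either array, 4.27% were higher and 4.2% lower by this rule. In Dclk1- cells, again 3 were higher and 0 lower, against 5.83% and 5.24% of 12340 genes. The median of the 5 members was 1.75 log2 in Dclk1+ cells and 2.33 in Dclk1- cells, against -0.03 and -0.02 over all genes. The same 3 members, Ifitm1, Ifitm2 and Ifitm3, were higher in both comparisons. The family was chosen by these values and the 4 arrays were normalized together, so this is a description only.

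Ifitm1 was 2.81 log2 (7.04-fold) higher in Dclk1+ tumor than in Dclk1+ normal cells and 7.02 log2 (130-fold) higher in Dclk1- tumor than in Dclk1- normal cells. The second value was the 3rd highest of 12340 genes and rests on a normal spot of 28.6 units, so its size depends on how background was treated: it was 4.99 with the local background subtracted, 8.26 with a smaller offset and 9.91 on the authors' values. Every treatment of background left Ifitm1 at least 2-fold higher in tumor. Ifitm3 was 2.93 log2 (7.64-fold) higher in Dclk1+ tumor cells and 2.80 log2 (6.96-fold) higher in Dclk1- tumor cells. Of the 3 members, Ifitm3 moved least with processing, between 2.75 and 3.20 in Dclk1+ cells and between 2.51 and 2.98 in Dclk1- cells over 10 alternatives.

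Ifitm2 was 1.75 log2 (3.35-fold) higher in Dclk1+ tumor cells and 2.33 log2 (5.04-fold) higher in Dclk1- tumor cells. Its spot in Dclk1- tumor read 1225 units with 1110 units of signal around it, and subtracting that local background ended the call in Dclk1- cells, at 0.33 log2, and left 1.18 in Dclk1+ cells. The local background followed the spots on all arrays (correlation of logs over probes 0.92 to 0.98). Around the Ifitm1 spot it was 2920 units in Dclk1+ tumor and 6886 in Dclk1- tumor, against 140.4 in Dclk1+ normal and 19.6 in Dclk1- normal. How much of it is stray light and how much is spot signal was not tested.

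Between tumor and normal, Ifitm5 differed by 0.28 log2 (Dclk1+) and 0.49 (Dclk1-), and Ifitm6 by -0.03 and 0.38. The last value is at least 1.29-fold, but only with the processing used here. With the local background subtracted, Ifitm5 was at 0.014 (Dclk1+) and -0.050 (Dclk1-), and Ifitm6 at -0.018 and -0.0031. These 2 dim members passed 2-fold in part on the authors' values, from which a constant near the blank mean was subtracted: Ifitm5 was then 2.60-fold and 3.08-fold higher in tumor, and Ifitm6 was 0.644-fold in Dclk1+ cells and 7.74-fold higher in Dclk1- cells. At spots this close to the blanks, the ratio is set by a few units of intensity.

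**Figure D2:**
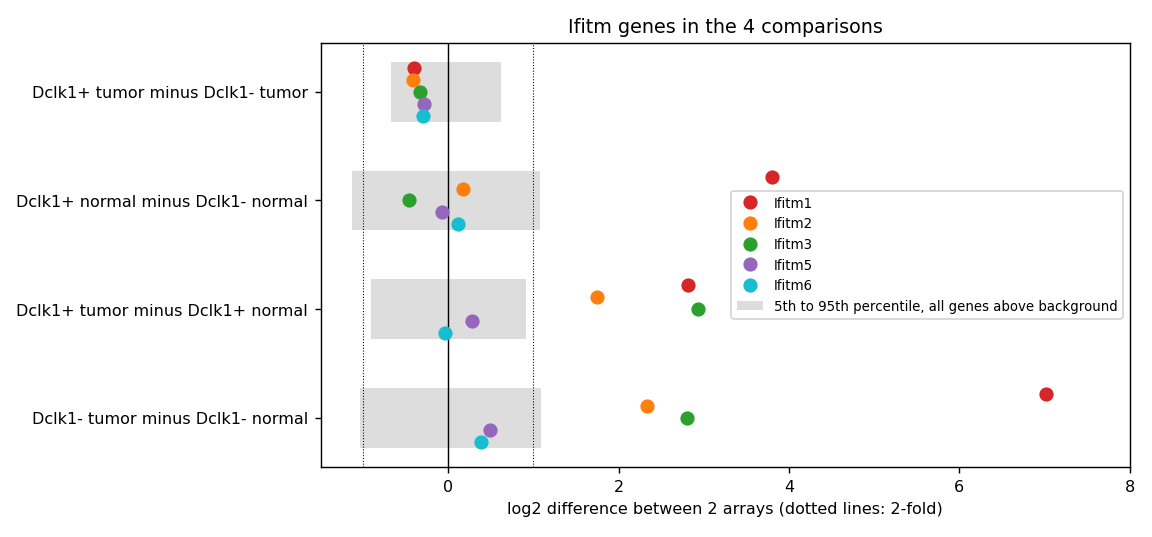
Log2 difference between 2 arrays (horizontal axis) of each Ifitm gene in the 4 comparisons; grey bars hold the middle 90% of all genes above background, and dotted lines mark 2-fold. Ifitm1, Ifitm2 and Ifitm3 lie right of the bars for tumor against normal, and Ifitm1 alone does so for Dclk1+ against Dclk1- normal cells, at 3.80.

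The second comparison was Dclk1+ against Dclk1- cells. In tumor, 0 of 5 members were at least 2-fold higher and 0 lower, where 1.76% and 2.13% of 12197 genes were. All 5 were slightly lower in Dclk1+ tumor cells, between -0.41 log2 for Ifitm1 and Ifitm2 and -0.29 for Ifitm5, with a median of -0.33 against 0.01 over all genes. With the local background subtracted, Ifitm1 turned to 0.33, Ifitm2 to 0.71, Ifitm5 to 0.08 and Ifitm6 to 0.05, while Ifitm3 stayed lower at -0.41. As first given, these differences were near or within the spread between probes of a gene, 0.39 log2. Under other alternatives some were wider: Ifitm1, Ifitm2 and Ifitm3 were at -0.67, -0.69 and -0.63 with median scaling, and Ifitm6 was at -1.68 on the authors' values.

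In normal cells, 1 of 5 members was higher by 2-fold or more in Dclk1+ cells and 0 were lower; among 12844 genes the shares were 5.66% and 5.92%. That member was Ifitm1, 3.80 log2 (13.9-fold) higher in Dclk1+ than in Dclk1- normal cells, the 42nd highest of all genes. It was 2.95 with the local background subtracted, 4.98 with a smaller offset and 7.22 on the authors' values. Ifitm2 differed by 0.18, Ifitm3 by -0.46, Ifitm5 by -0.08 and Ifitm6 by 0.11, at least 1.08-fold with the processing used here. Ifitm6 was at 0.067 with the local background subtracted. Ifitm1 thus stood apart from the genes on both sides of it in this comparison.

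The Dclk1 difference of Ifitm1 was -0.41 in tumor and 3.80 in normal tissue. The gap of -4.21 log2 between them was the lowest of 13465 genes above background on any array, and 1 of 5 members was at least 2-fold below 0 on this measure, as were 4.4% of genes, and 0 members were above, as were 4.42% of genes. The Ifitm1 gap stayed negative in all 10 alternatives, between -7.39 and -2.62. Of 13 tuft cell markers, 9 were at least 2-fold below 0 on this measure and 0 above, with a median of -1.53. Among these markers Ptgs1 had a gap of -3.76 and Il17rb of -3.24. The values behind the gaps differed. For tumor against normal, the marker medians were -1.77 log2 in Dclk1+ cells and -0.03 in Dclk1- cells, where Ifitm1 was at 2.81 and 7.02. The other members had gaps of -0.59 for Ifitm2, 0.13 for Ifitm3, -0.21 for Ifitm5 and -0.41 for Ifitm6, whose Dclk1- normal spot was not above background. With the local background subtracted, the gap turned to 0.85 for Ifitm2 and 0.06 for Ifitm5; that of Ifitm3 turned to -0.016 with median scaling, and that of Ifitm6 reached -3.79 with the blank mean subtracted. All 4 arrays enter this value, 1 per group, so no test could be made.

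Across the 4 samples, the genes nearest to Ifitm1 by the distance between centred log2 profiles were Trf (transferrin, 2.09), Nkd1 (an inhibitor of Wnt signalling, 2.46), Tesc (the calcium-binding tescalcin, 2.46), Tubb5 (a beta-tubulin, 2.53) and Avpi1 (2.67), of 13464 compared; the tumor difference of Avpi1 turned in sign in Dclk1- cells with the local background subtracted. No gene lay closer to Ifitm1 than Trf did. Nkd1 itself was 9.97 in Dclk1+ and 10.53 in Dclk1- tumor cells, and 6.80 in Dclk1+ and 6.10 in Dclk1- normal cells. Ifitm3 ranked 42nd and Ifitm2 78th. Ifitm2 had close matches: Podxl (podocalyxin, 0.21), Npy2r (a neuropeptide Y receptor, 0.21), Bex4 (0.21), Msx1 (a homeobox factor, 0.22) and Rcor2 (a corepressor, 0.23). Ifitm3 lay nearest to Ctse (the protease cathepsin E, 0.25), Pla2g2a (a secreted phospholipase, 0.27), Tpd52l1 (0.35), Ncmap (0.38) and Ldhb (a lactate dehydrogenase subunit, 0.44), with Ifitm2 at rank 41. The genes nearest to Ifitm5 were Itgb1, Pcyox1, Dus4l, Myc and Metap1, and to Ifitm6 Ddx10, Pum2, Appl1, Kdm1a and Sptssb, all within 0.06 of profiles that hardly vary. With 4 points a profile, such likeness describes these arrays only.

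**Figure D3:**
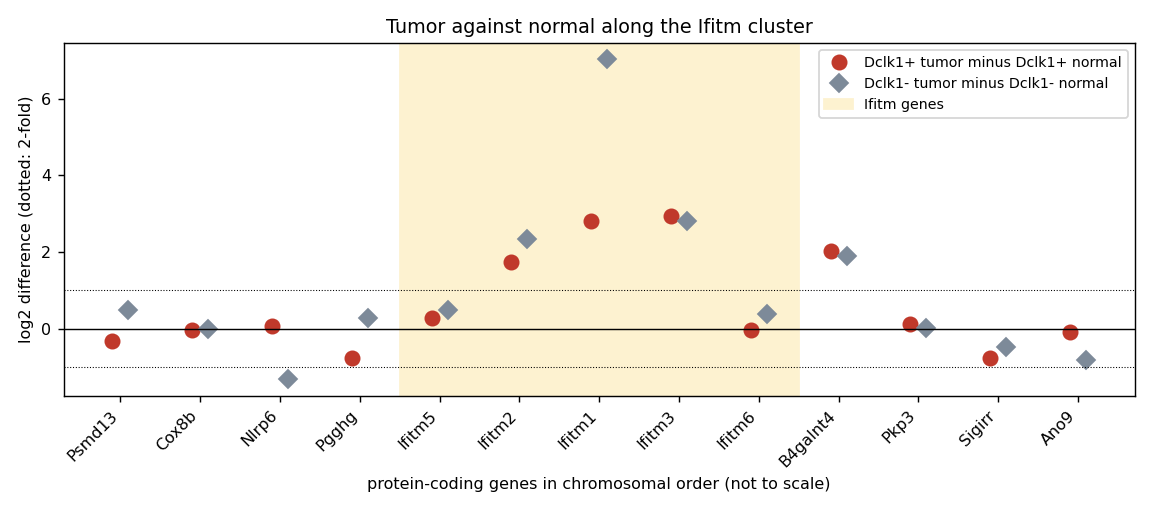
Log2 difference between tumor and normal (vertical axis) along the protein-coding genes around the Ifitm cluster in chromosomal order, not to scale; red circles are Dclk1+ cells, grey diamonds Dclk1- cells, and the shaded stretch holds the 5 Ifitm genes. Ifitm2, Ifitm1, Ifitm3 and the neighbour B4galnt4 lie above the 2-fold line in both.

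In RefSeq gene order the cluster runs Ifitm5, Ifitm2, Ifitm1, Ifitm3 and Ifitm6, with no other protein-coding gene between them and the 2 dim members at its ends. Of the 4 genes on each side, chosen for their place, B4galnt4 (an N-acetylgalactosaminyltransferase), next to Ifitm6, was also higher in tumor. Its signal (log2) was 8.80 in Dclk1+ and 9.13 in Dclk1- tumor cells, and 6.78 in Dclk1+ and 7.25 in Dclk1- normal cells, differences of 2.03 and 1.89 for tumor against normal. Pgghg, next to Ifitm5 on the other side, was 1.06 log2 higher in Dclk1+ tumor than in Dclk1- tumor cells and 2.10 higher in Dclk1+ than in Dclk1- normal cells. Sigirr (an inhibitory receptor of the interleukin-1 family) was 1.23 log2 higher in Dclk1+ than in Dclk1- normal cells. Nlrp6, an inflammasome sensor of the gut epithelium, was 2.09 log2 lower in Dclk1+ than in Dclk1- normal cells and 1.32 lower in Dclk1- tumor than in Dclk1- normal cells. The other 4 neighbours (Psmd13, Cox8b, Pkp3 and Ano9) differed less than 2-fold in each comparison.

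Of interferon-stimulated genes, the set that Ifitm genes usually accompany, those that differed 2-fold between tumor and normal were all lower in tumor, and most did not differ that much. Of 30 on the array, 27 were above background for Dclk1+ tumor against Dclk1+ normal, with 0 at least 2-fold higher, 9 lower and a median of -0.50 log2, against 4.27% higher, 4.2% lower and a median of -0.03 over all genes. For Dclk1- tumor against Dclk1- normal, 0 of 25 were higher and 7 lower, with a median of -0.24, against 5.83% and 5.24% of all genes and a median of -0.02. Some were slightly higher in tumor, such as Oasl2 at 0.10 and 0.24 log2 in Dclk1+ and Dclk1- cells. Oas1a, an antiviral 2′-5′-oligoadenylate synthetase, was 10.59 in Dclk1+ and 8.0 in Dclk1- tumor cells, and 12.69 in Dclk1+ and 10.53 in Dclk1- normal cells. It was thus 2.11 log2 lower in Dclk1+ tumor and 2.53 lower in Dclk1- tumor than in normal cells. Rsad2 (viperin, -2.64 and -2.17), Oasl1 (-2.32 and -2.46) and Zbp1, a nucleic acid sensor (-2.03 and -2.61), were lower in tumor in both comparisons. Ifitm1, Ifitm2 and Ifitm3 had the opposite sign to each of these 4 genes.

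Between Dclk1+ and Dclk1- cells, in tumor 5 of 23 interferon-stimulated genes were higher by 2-fold or more and 0 lower (median 0.08), against 1.76% and 2.13% of all genes. In normal tissue 5 of 26 were higher and 1 lower (median 0.21), against 5.66% and 5.92%. Ifi27 was 2.73 log2 higher in Dclk1+ tumor and 3.19 higher in Dclk1+ normal cells, and Oas2 2.01 and 4.25. In normal cells Bst2 (tetherin, which holds budding virions at the cell surface) was 2.69 log2 higher in Dclk1+ cells, and Rtp4 was lower at -1.13. In normal cells Ifitm1 had the same sign as Ifi27, Oas2 and Bst2. In tumor cells its difference of -0.41 was too close to the spread between probes, and too dependent on the background treatment, to be given a sign beside them.

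**Figure D4:**
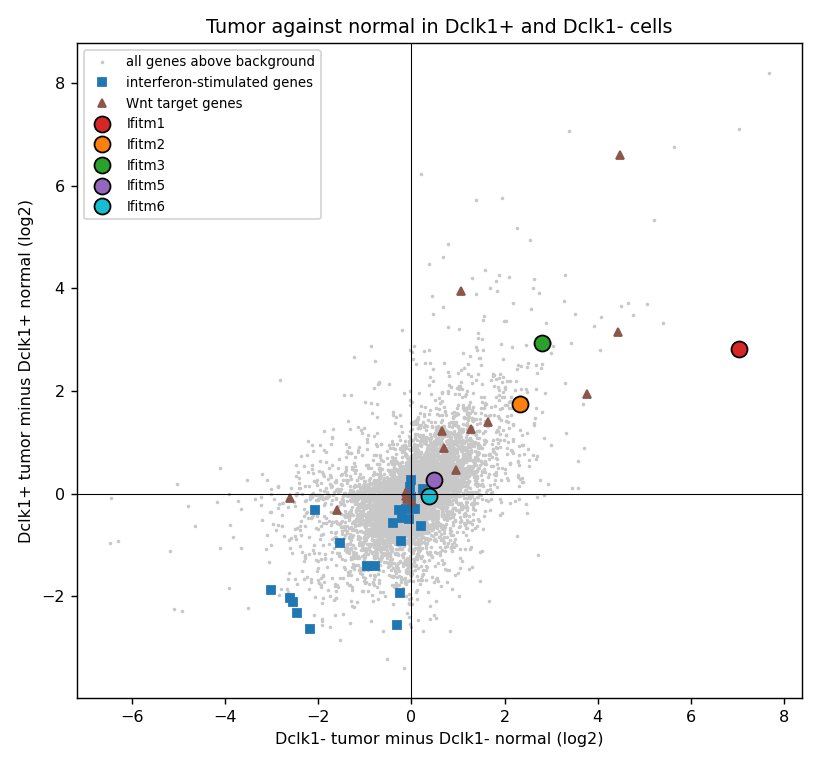
Log2 difference between tumor and normal in Dclk1+ cells (vertical axis) against that in Dclk1- cells (horizontal axis) for genes above background; circles are the Ifitm genes, blue squares interferon-stimulated genes and brown triangles Wnt target genes. Ifitm1, Ifitm2 and Ifitm3 lie in the upper right with Wnt targets such as Mmp7 and Nkd1, while the interferon-stimulated genes that moved lie in the lower left.

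Upstream of these genes, 13 interferon receptor and signalling genes were above background. In tumor 0 differed 2-fold between Dclk1+ and Dclk1- cells, where 1.76% of all genes were higher and 2.13% lower. In normal cells Il10rb, a subunit of the interferon-lambda receptor (1.92 log2), and Tyk2, a receptor kinase (1.06), were higher in Dclk1+ cells and Ifnar2, a type I receptor subunit, was lower (-1.10), against 5.66% of all genes higher and 5.92% lower. For tumor against normal, 0 of 13 were higher and 3 were lower in Dclk1+ cells (4.27% and 4.2% of all genes), and the same held in Dclk1- cells (5.83% and 5.24%). They were Irf1 (-1.76 and -2.46), Stat2 (-1.67 and -2.29) and Il10rb (-2.52 and -1.32), the first 2 of them transcription factors of the interferon response. Of 6 listed interferon genes, 5 were on the array, between 2 and 4 were above background in a comparison, and 0 differed 2-fold in any. The list held no interferon-alpha gene, so those genes were not examined.

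Genes of the Wnt target list included some with the direction of Ifitm1, Ifitm2 and Ifitm3. For tumor against normal, 7 of 16 were at least 2-fold higher and 0 lower in Dclk1+ cells, and 6 were higher and 2 lower in Dclk1- cells, with a median of 0.68 in each. Over all genes, the shares were 4.27% higher and 4.2% lower in Dclk1+ cells, and 5.83% and 5.24% in Dclk1- cells. Mmp7, the protease matrilysin, was 13.03 in Dclk1+ and 13.47 in Dclk1- tumor cells, and 6.44 in Dclk1+ and 9.0 in Dclk1- normal cells. It was higher in tumor by 6.60 and 4.47 log2, Nkd1 by 3.16 and 4.43, and Ccnd2, a D-type cyclin, by 3.94 and 1.06. In Dclk1- cells Ephb3 and Ephb2, receptors that position crypt cells, were lower in tumor at -2.60 and -1.60. Between normal Dclk1+ and Dclk1- cells, 0 of 16 were higher and 3 lower (5.66% and 5.92% of all genes), namely Ccnd2 (-2.89), Ephb3 (-2.62) and Mmp7 (-2.57); Ifitm1 had the opposite sign there. In tumor 0 of 15 were higher and 1 lower in Dclk1+ cells (1.76% and 2.13% of all genes). The lower gene was Wif1, a secreted Wnt inhibitor, at -1.87, a difference that turned to 0.70 with the local background subtracted.

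Proteins that bind or modify Ifitm proteins were taken as a further list, 7 of them above background. Cd81 and Cd9 are tetraspanins that form complexes with Ifitm1 in human leukocytes. For Dclk1+ tumor against Dclk1+ normal, 3 were at least 2-fold higher and 0 lower (4.27% and 4.2% of all genes): Fkbp11, an isomerase that binds mouse Ifitm5 (2.22), Cd9 (1.88) and Cd81 (1.51). For Dclk1- tumor against Dclk1- normal, 4 were higher and 0 lower (5.83% and 5.24%): Zmpste24, a metalloprotease needed for Ifitm antiviral action (2.12), Fkbp11 (1.38), Nedd4, a ubiquitin ligase of human IFITM3 (1.14), and Cd9 (1.09). In normal cells Cd81 (-3.20) and Cd9 (-1.71) were lower in Dclk1+ cells, with 0 of 7 higher (5.92% of all genes lower, 5.66% higher). In tumor 0 of 7 differed 2-fold (2.13% of all genes lower, 1.76% higher). Of the wider CD225 family, 3 genes were on the array and the 2 above background, Ifitm10 and Tmem91, differed by at most 0.29 log2 in all 4 comparisons.

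Markers of cells other than epithelium moved with some of these values. The summed intensity, on the authors' normalised scale, of 11 macrophage and monocyte markers on the array was 1235 in Dclk1+ and 2834 in Dclk1- tumor cells, and 1330 in Dclk1+ and 522 in Dclk1- normal cells. C1qb, a complement subunit of macrophages, was 2.94 log2 higher in Dclk1- tumor than in Dclk1- normal, -1.43 in Dclk1+ against Dclk1- tumor and 1.32 in Dclk1+ against Dclk1- normal. The sum was thus lowest in Dclk1- normal, as Ifitm1 was, but not every marker was: Csf1r was highest there, and Cd14 was lowest in Dclk1+ normal. For Dclk1+ tumor against Dclk1+ normal, C1qb differed by 0.19 and Ifitm1 by 2.81. Of the markers above background, 4 of 9 were at least 2-fold higher and 0 lower in Dclk1- tumor than in Dclk1- normal (5.83% and 5.24% of all genes). Between the Dclk1+ samples, 1 of 8 was higher in tumor and 0 lower (4.27% and 4.2%). Adgre1 and Itgam, also on this list, were not above background on any array.

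The 10 neutrophil markers summed to 360.5 in Dclk1+ and 566.1 in Dclk1- tumor cells, and 188.1 in Dclk1+ and 110.4 in Dclk1- normal cells, with Mpo, Cxcr2, Csf3r and Mmp9 at background on all 4 arrays. The 10 fibroblast and smooth muscle markers summed to 330.3, 736.4, 78.8 and 57.5 in the same order, with Vim 2.50 log2 higher in Dclk1- tumor than in Dclk1- normal. Endothelial markers summed to 26.9, 16.1, 51.0 and 53.4, with Pecam1 and Cdh5 at background throughout. T and NK cell markers went the other way from Ifitm1 between tumor and normal, at 38.1, 38.4, 133.3 and 260.2. B and plasma cell markers summed to 304.8, 112.6, 191.2 and 81.4, again in the same order. The part of such cells in the Ifitm values was not tested.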

How the data were processed

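RNA of 4 sorted samples was hybridised to 1-colour arrays (Cy5, amplified amino allyl RNA, per the labels). Per the file headers, the deposited scanner files give median intensity for spots and for the local background around them, linear and unsubtracted. The series table the authors deposited holds intensity values linear in those of the spots (a constant near the blank mean subtracted, then a factor per array), with empty cells for dim probes. Its centring is not stated in the labels, and its column medians were 24.99 to 25.01.

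Spot intensities were corrected with normexp (limma 3.58.1, R 4.3.3, offset 50). Control and flagged spots were dropped, then arrays were quantile normalized and log2 transformed. Above background meant over the blank mean plus 2 SD. A gene was counted when at least 2-fold apart and above background on either array. Where it was above on 1 only, the fold is a lower bound for this processing only. Platform symbols were updated to RefSeq GRCm38.p6 (12622 current, 3947 synonyms of 1 gene, 59 of several, 3 unmatched). The sources used here do not state the array's build.

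All members are named, with the 5 nearest genes of each and, from each list, up to 4 of the largest differences. Members and lists were chosen with earlier results of these data known. Neighbours of the cluster were named after their values were seen. Alternatives changed the background, offset, scaling, filter, probe rule or source of values. The procedure was tested on simulated data.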

Additional observations from a re-analysis of the deposited data

Results flagged for a closer look

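The difference between Dclk1+ and Dclk1- cells had opposite signs in tumor and normal tissue for 3 members. Ifitm1 was at -0.41 log2 in tumor and 3.80 in normal, Ifitm2 at -0.41 and 0.18, and Ifitm6 at -0.30 and 0.11. Ifitm6 was also at -0.034 for tumor against normal in Dclk1+ cells and at 0.38 in Dclk1- cells. The opposite signs depend on the background treatment: with the local background subtracted, Ifitm1 was at 0.33 in tumor and 2.95 in normal, Ifitm6 at 0.05 and 0.07, and Ifitm2 at 0.71 and -0.14, so that only Ifitm2 had opposite signs, turned round. These differences between comparisons were not tested, since each group holds 1 array. Only the normal-tissue value of Ifitm1 reached 2-fold.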

How the results depend on the processing

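No paired analysis was possible because each group holds 1 array and the labels give no replicate numbers, so no replicate could be left out either. Ifitm1 and Ifitm3 kept their direction and stayed at least 2-fold higher in tumor in all alternatives. With the blank mean subtracted, and likewise on the authors' values, more members and more of all genes were counted. Counts over all genes are in brackets, blank mean first. For Dclk1+ against Dclk1- tumor, 1 member (Ifitm6) was lower in place of 0 (1940 and 1366 in place of 260). In normal tissue 2 were higher in place of 1 (2598 and 2996 in place of 727). For tumor against normal, 4 were higher in place of 3 in Dclk1+ cells (2369 and 1743 in place of 549). In Dclk1- cells 5 were higher in place of 3 (2499 and 1804 in place of 719). For the difference between the Dclk1 differences, 2 were counted below 0 in place of 1, with no count over all genes under these settings. Subtracting the local background turned Avpi1 to -0.58 and Wif1 to -0.056 for Dclk1- tumor against Dclk1- normal, and Wif1 to 0.70 for Dclk1+ against Dclk1- tumor; the cause was not tested.

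Counts of interferon-stimulated genes grew when the blank mean was subtracted (authors' values in brackets): Dclk1+ against Dclk1- tumor, 8 (10) higher in place of 5 and 3 lower in place of 0; normal, 12 (13) higher in place of 5 and 2 (2) lower in place of 1; Dclk1+ tumor against normal, 2 (2) higher in place of 0 and 19 (19) lower in place of 9; Dclk1- tumor against normal, 14 (16) lower in place of 7; difference of differences, 4 (4) higher in place of 2 and 7 (7) lower in place of 2. Counts over all genes grew as well. With the blank mean subtracted, normal Dclk1+ against Dclk1- cells had 2598 higher and 2588 lower in place of 727 and 760. Dclk1+ tumor against normal had 2369 and 2869 in place of 549 and 540. Dclk1- tumor against normal had 2499 and 2696 in place of 719 and 647. An offset of 16 gave 14 lower for Dclk1+ tumor against normal, with 886 of all genes lower in place of 540. Median scaling gave 3 higher for Dclk1+ against Dclk1- tumor and 1 for the difference of differences, as 75th percentile scaling did there. Wnt target genes higher in tumor numbered 4 in Dclk1+ cells with the local background subtracted (492 of all genes). They numbered 10 in Dclk1- cells with the blank mean subtracted (2499 of all genes).

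Over all genes, Dclk1+ against Dclk1- tumor had 215 higher and 260 lower, but 143 and 440 with median scaling, 1681 and 1940 with the blank mean subtracted, and 2220 and 1366 on the authors' values. For tumor against normal the authors' values gave 1743 higher and 3494 lower in Dclk1+ cells, in place of 549 and 540, and 1804 and 3609 in Dclk1- cells, in place of 719 and 647. The authors' values shift the median of all genes by 0.35 and 0.27 log2 for Dclk1+ against Dclk1- and by -0.40 and -0.50 for tumor against normal. Signal over background limits Ifitm5, Ifitm6 and the Dclk1- normal value of Ifitm1.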
